A study of Rattus norvegicus with 6 samples.

Results

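The genes described here are 10 genes of TGF-beta and activin signalling: the ligand genes Tgfb1, Tgfb2, Tgfb3 and Inhba, the latency gene Ltbp1, the receptor genes Tgfbr1, Tgfbr2 and Tgfbr3, and the intracellular genes Smad3 and Smad7. They were picked out by gene symbol from 29468 symbols in the RNA-seq tables, of which 20494 had a value above 0 in at least 1 sample. TGF-beta ligands are secreted in a latent form, held by a propeptide and a binding protein in the matrix, and act once released. The active ligand brings a type II and a type I receptor kinase together, which phosphorylate SMAD proteins that enter the nucleus, and activins signal through their own receptors to the same SMADs. In peripheral nerve, TGF-beta is known to act on Schwann cell growth, survival and the response to injury.

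Bulk RNA-seq was performed on 2 kinds of Schwann lineage cell from LEWIS rats, with 3 samples each. Schwann cell precursors (SCPs) came from sciatic nerves and brachial plexus of embryos at day 14. Repair Schwann cells (RSCs) came from the distal stumps of sciatic nerves of 10-week-old rats, 1 week after the nerve was cut. The labels give both groups as wild type, while the study's methods take grafted cells from LEWIS rats that express a red fluorescent protein throughout the body and describe no separate preparation for RNA, so the genotype of the sequenced cells rests on the labels. The comparison asks how the injury-induced state differs from the embryonic one. Age, anatomical site, injury and dissociation protocol differ together between the groups and cannot be told apart, and the labels do not say whether the samples of a group were separate animals, so p-values measure only the spread between these samples.

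Levels are in FPKM, fragment numbers scaled to transcript length and library size. The tables name no total read number, so the absolute depth is unknown. The ratio of read coverage to FPKM, relative to the deepest library, was 0.879 to 1.00 in SCPs and 0.789 to 0.841 in RSCs. The tables also hold transcripts assembled by Cufflinks that carry no gene symbol, which took 26.1 to 31.9% of all FPKM in SCPs and 18.6 to 23.4% in RSCs. Values are given for the named transcripts of a gene, and beside them with the unnamed transcripts of the same locus added where this changes the picture. Fold changes are RSC minus SCP on the log2(FPKM + 1) scale, and a gene was called at an unadjusted limma p under 0.01, with the Benjamini-Hochberg adjusted p given beside it.

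The study's methods include a step on uncoated flasks to let fibroblasts and macrophages attach and be left behind. The cells were checked against marker lists. Sox10, the transcription factor that marks the Schwann lineage, was at 175 to 181 FPKM in SCPs and 143 to 149 FPKM in RSCs. Of 12 leukocyte markers tested, 12 were called higher in RSCs, and their summed level was 19.7 to 56.3 FPKM in SCPs and 3246 to 3741 FPKM in RSCs. Of 8 fibroblast markers, 6 were called higher in RSCs and 1 higher in SCPs, with sums of 847 to 1187 and 5409 to 8067 FPKM. The 6 tested erythroid markers were all called higher in SCPs. All 8 erythroid markers on the list, tested or not, summed to 16684 to 74648 FPKM in SCPs and 0.548 to 1.75 FPKM in RSCs. Stress-response genes that respond to tissue dissociation, both immediate early and heat shock genes, summed to 620 to 766 FPKM in SCPs and 5573 to 6156 FPKM in RSCs, with 11 of 12 called higher in RSCs. Of all genes tested, 18.1% were called higher in RSCs and 22.4% higher in SCPs. The part of these cells and responses in the results was not tested. In bulk samples, fewer cells of a type and less RNA per cell cannot be told apart.

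All 10 genes passed the filter of a mean of at least 1 FPKM, among 13003 genes tested. Tgfb1 and Tgfbr1 were called higher in RSCs, and Tgfb2, Smad3 and Smad7 higher in SCPs. This is 5 of 10 genes, beside a background of 40.5% of all genes tested (18.1% higher in RSCs and 22.4% higher in SCPs), so the number of calls was near that of genes at large. The values of the SCP and RSC samples did not overlap for 5 of the 10 genes, beside 58.6% of all genes. The median log2 fold change of the 10 genes was -0.51, and that of all genes tested was -0.17. At an adjusted p under 0.01, 2 of the 10 genes passed, beside 31.6% of all genes. Over 4-fold differences were found for 1 gene in each direction, Tgfb1 and Tgfb2, beside backgrounds of 7.81% and 3.78%. Once unnamed transcripts were added, 5 genes were again called, beside a background of 57.4%, with Tgfbr2 in place of Tgfbr1, and 7 of 10 did not overlap, beside 72.4%. When transcripts were also weighted by length, 9 of the 10 were tested and the same 5 were called, beside 63.2% of all genes.

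**Figure D1:**
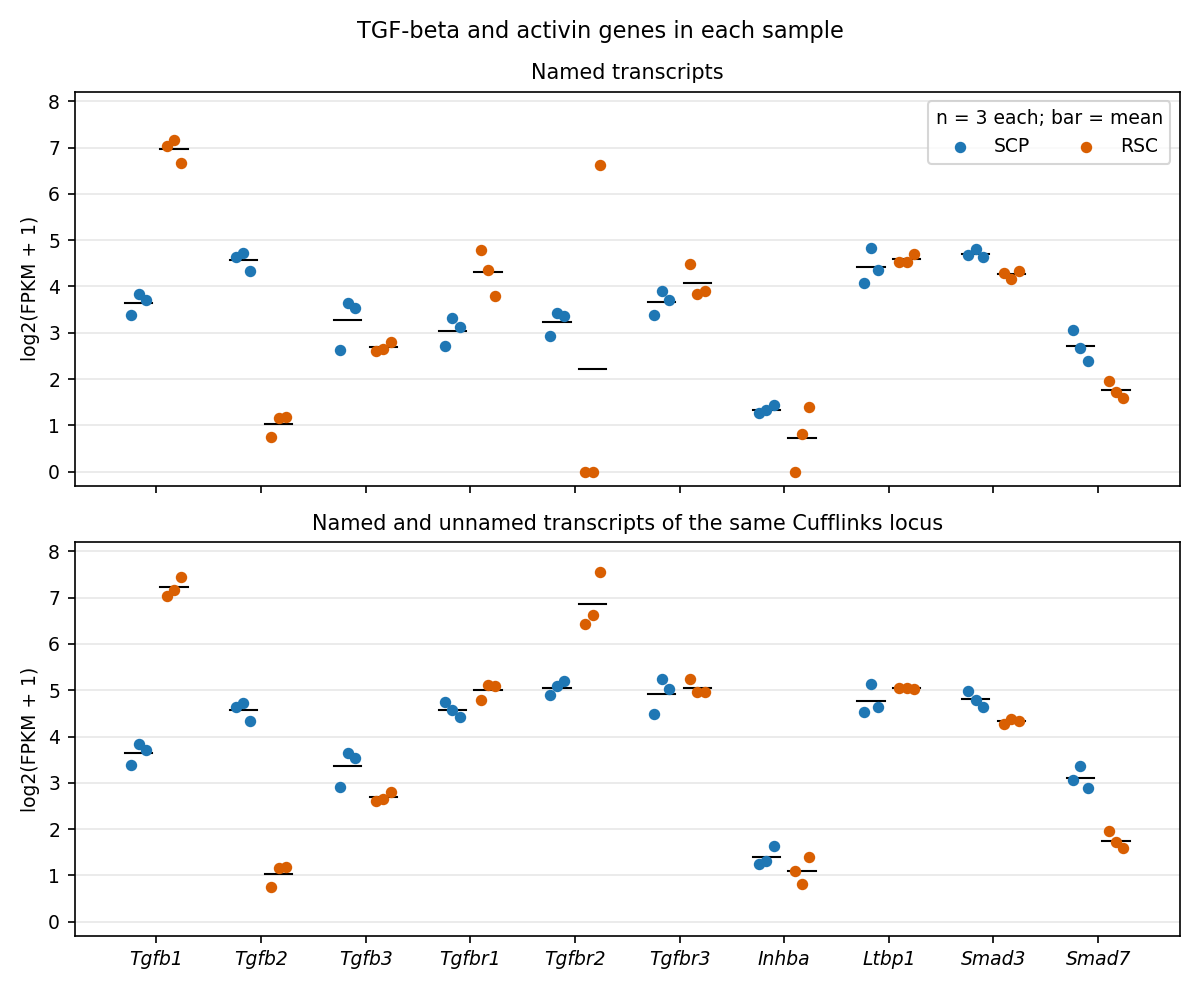
Level of the 10 genes in each sample on the log2(FPKM + 1) scale, for named transcripts (top) and with unnamed transcripts of the same locus added (bottom). Points are samples, blue for SCPs and orange for RSCs, and bars are means of 3. Tgfb1 and Tgfb2 separate the groups in opposite directions in both panels, while the named Tgfbr2 transcript is at 0 in 2 RSC samples and at 97.5 FPKM in the third.

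The promoters of the 3 genes with the widest length-weighted differences between groups are printed. The ligand genes Tgfb1 and Tgfb2 lay on opposite sides of the comparison, and Tgfbr2 encodes the type II receptor for TGF-beta. The sequences are RefSeq promoters on the GRCr8 build, 250 bases before to 50 bases after the annotated start, written 5′ to 3′ on the strand of the gene. Capitals mark matches to any of the searched motifs on either strand, and the promoters lie at chr1:90324062-90324361 on the plus strand, chr13:100792636-100792935 on the minus strand and chr8:124761420-124761719 on the minus strand.
Tgfb1: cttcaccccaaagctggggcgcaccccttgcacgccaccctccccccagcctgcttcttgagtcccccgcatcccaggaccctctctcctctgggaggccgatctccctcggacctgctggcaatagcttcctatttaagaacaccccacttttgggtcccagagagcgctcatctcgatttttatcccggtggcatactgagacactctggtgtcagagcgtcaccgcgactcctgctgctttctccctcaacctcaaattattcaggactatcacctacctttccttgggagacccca
Tgfb2: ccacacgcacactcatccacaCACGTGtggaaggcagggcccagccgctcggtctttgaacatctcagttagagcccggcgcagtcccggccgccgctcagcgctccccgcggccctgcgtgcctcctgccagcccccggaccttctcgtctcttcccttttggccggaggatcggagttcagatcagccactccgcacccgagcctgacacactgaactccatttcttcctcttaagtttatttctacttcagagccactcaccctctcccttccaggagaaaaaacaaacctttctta
Tgfbr2: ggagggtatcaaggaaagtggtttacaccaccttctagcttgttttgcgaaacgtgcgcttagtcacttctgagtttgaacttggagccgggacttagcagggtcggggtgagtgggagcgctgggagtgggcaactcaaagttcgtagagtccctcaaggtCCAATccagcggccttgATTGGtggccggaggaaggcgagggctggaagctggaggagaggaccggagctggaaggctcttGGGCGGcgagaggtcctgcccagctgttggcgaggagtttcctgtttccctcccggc

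The searched motifs were the AP-1 site TGANTCA, the cyclic AMP response element TGACGTCA, the palindromic SMAD site GTCTAGAC, the GC box GGGCGG, the TATA box TATAAA, the CCAAT box and the E-box CACGTG. All 10 genes had a promoter in the table. The Tgfb1 window held no match. It was placed at the annotated start, while transcripts assembled in RSCs ran 714 to 739 bases beyond the low-coordinate end of the named transcript. The gene lies on the plus strand, and the window reached 250 bases before the annotated start. If that start is the same in both builds, the assembled starts in RSCs lay outside the window. Which start is used in the cells was not tested. The Tgfb2 window held 1 E-box at position -229, a motif found in 6.42% of 33469 promoters of this length. The Tgfbr2 window held a GC box at -7 and CCAAT boxes at -88 and -71, motifs found in 33.1% and 37.5% of promoters. Counting Tgfbr2, 5 of the 10 windows held a GC box and 4 held a CCAAT box. Of the remaining motifs, Ltbp1 held the cyclic AMP response element at -108 (1.83% of promoters) and Inhba a TATA box at -40 (14.2%). No window of the 10 held the AP-1 or SMAD letters, which occur in 7.33% and 0.197% of promoters. A match describes letters only and is not evidence of binding.

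The ligand genes changed places. Tgfb1, which encodes the TGF-beta ligand best known from wound repair, was at 9.43, 13.3 and 12.1 FPKM in SCP replicates 1 to 3 and at 131, 143 and 101 FPKM in RSC replicates 1 to 3. Every RSC sample lay far above every SCP sample. The log2 fold change was 3.32 ± 0.18 (SE, n = 3 per group), a 9.97-fold difference with a limma adjusted p of 7.0e-05. Tgfb1 lies at chr1:82480875-82497196 in rn6, and its 1 named transcript is 1457 bases long. In RSCs only, Cufflinks also assembled unnamed transcripts that overlapped the named one and ran 714 to 739 bases beyond its low-coordinate end, at 95.8, 99.98 and 72.7 FPKM. Only that of RSC replicate 3 was placed in the same locus, and adding it gave a log2 fold change of 3.58 ± 0.16. The RSC samples were also those with the high leukocyte and fibroblast marker sums given above.

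Tgfb2, a ligand known for its roles in embryonic development, had the opposite pattern. It was at 24.0, 25.4 and 19.1 FPKM in SCPs and at 0.674, 1.23 and 1.27 FPKM in RSCs, and the groups were far apart. The log2 fold change was -3.54 ± 0.21 (SE), 11.6-fold higher in SCPs, with a limma adjusted p of 8.8e-05. Tgfb2 lies at chr13:105039639-105141689 in rn6, and no unnamed transcript was placed in its locus. Unnamed transcripts that overlapped it outside that locus were found in SCP replicates 2 and 3, at 5.91 and 10.4 FPKM, and were not added. The values came from 2 named transcripts, and the shorter one carried the Cufflinks status LOWDATA, a flag on the estimate, in 5 of 6 samples. Both Tgfb1 and Tgfb2 kept their calls under all 18 alternative settings, with log2 fold changes of 3.19 to 3.66 and -4.34 to -3.02.

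Tgfb3, the third TGF-beta ligand gene, was at 5.16, 11.5 and 10.6 FPKM in SCPs and 5.06, 5.30 and 6.01 FPKM in RSCs (chr6:109913757-109936217). The groups overlapped because SCP replicate 1 lay among the RSC values. The log2 fold change was -0.58 ± 0.30 (SE), with a limma adjusted p of 0.17. Without SCP replicate 1 it was -0.90 with an unadjusted limma p of 0.0031, which would pass the threshold.

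As a share of the summed FPKM of the 3 TGF-beta ligand genes, Tgfb1 took 24.5, 26.4 and 29.0% in SCPs and 95.8, 95.6 and 93.3% in RSCs. The mean share was 26.6% ± 2.27 (SD, n = 3) in SCPs and 94.9% ± 1.41 in RSCs, a difference of 68.3 percentage points. Tgfb2 took 52.8% ± 8.46 of the sum in SCPs and 0.831% ± 0.340 in RSCs, and Tgfb3 took 20.5% ± 6.33 and 4.27% ± 1.11. The sum itself was 43.5 ± 6.0 FPKM in SCPs and 131 ± 21.0 FPKM in RSCs. None of these values overlapped between the groups, and each had a 2-sided exact permutation p of 0.1, the smallest that 3 against 3 samples allow.

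**Figure D2:**
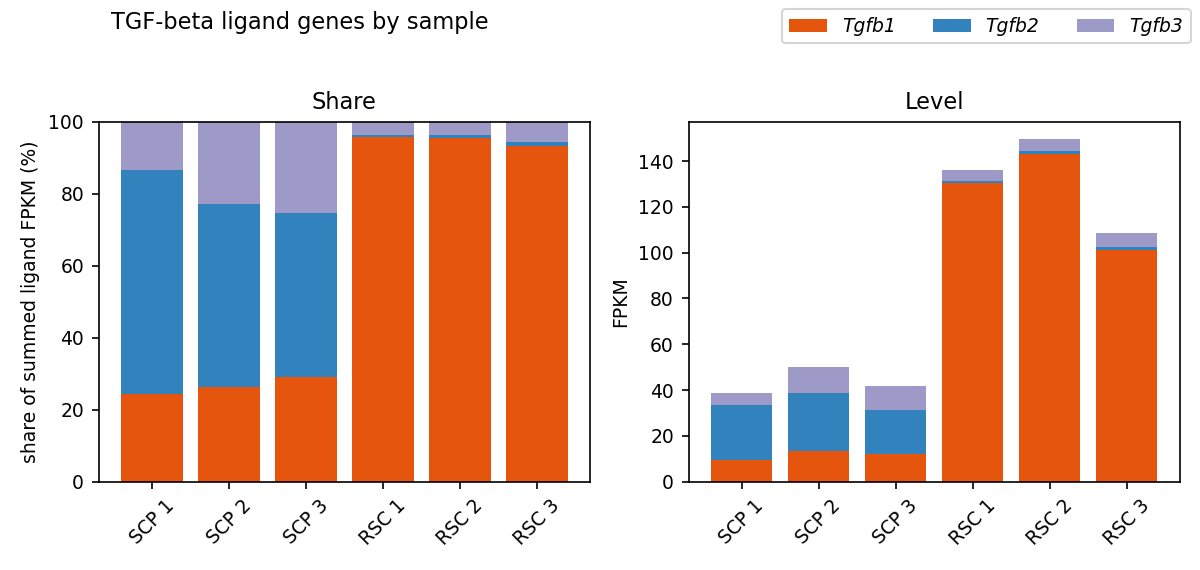
Share of each TGF-beta ligand gene in their summed FPKM (left, percent) and the FPKM of each (right), stacked for each of the 6 samples. Tgfb2 is the largest part in every SCP sample, at 45.6 to 62.2%, and Tgfb1 in every RSC sample, at 93.3 to 95.8%.

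Inhba, which encodes the beta A subunit of activin A, had the lowest mean of the 10 genes in both groups among named transcripts, although in RSC replicate 3 it was above Tgfb2 and the RSC values of these genes overlapped. It was at 1.39, 1.5 and 1.72 FPKM in SCPs and 0, 0.751 and 1.62 FPKM in RSCs (chr17:51894598-51920674). The groups overlapped, and the log2 fold change was -0.61 ± 0.39 (SE), with a limma adjusted p of 0.25. With transcripts weighted by length, the mean was 0.430 FPKM in SCPs and 0.529 FPKM in RSCs, under the filter, so no direction can be read for Inhba.

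Ltbp1 encodes a latent TGF-beta binding protein, which tethers the inactive ligand to the matrix. It was at 15.8, 27.4 and 19.4 FPKM in SCPs and 22.2, 21.9 and 25.2 FPKM in RSCs (chr6:21203502-21600441). The RSC values lay within the SCP range, with a log2 fold change of 0.17 ± 0.21 (SE) and a limma adjusted p of 0.54. Without SCP replicate 1 the estimate was -0.0014, so its sign rested on that sample.

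Among the receptors, Tgfbr2 depended on how its transcripts were counted. Tgfbr2 encodes the type II receptor kinase that binds TGF-beta, and lies at chr8:124310288-124399345 in rn6. Its named transcripts were at 6.61, 9.76 and 9.27 FPKM in SCPs and at 0, 0 and 97.5 FPKM in RSCs, with a log2 fold change of -1.03 ± 1.83 (SE) and a limma adjusted p of 0.68. The zeros were not an absence of the gene from these libraries. In the SCPs and in RSC replicates 1 and 2, Cufflinks placed an unnamed 5101-base transcript in the same locus, at 22.1, 23.2 and 26.4 FPKM in SCPs and 85.4 and 97.0 FPKM in RSCs. In RSC replicate 3 it assembled an unnamed 2999-base piece at 88.5 FPKM instead, beside the named transcript.

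Summed over named and unnamed transcripts, Tgfbr2 was at 28.7, 33.0 and 35.7 FPKM in SCPs and 85.4, 97.0 and 186 FPKM in RSCs. All RSC samples then lay above all SCP samples, and the log2 fold change was 1.81 ± 0.29 (SE), 3.50-fold, with a limma adjusted p of 0.0015. FPKM is scaled to the length of each transcript, so a plain sum over shorter transcripts of a gene can run high. In RSC replicate 3 the transcripts were 2079 and 2999 bases long. Each transcript was therefore also weighted by its length. The values became 24.5, 26.8 and 29.8 FPKM in SCPs and 84.2, 95.6 and 90.4 FPKM in RSCs, and RSC replicate 3 no longer stood apart. The log2 fold change was 1.70 ± 0.09 (SE), 3.26-fold, with a limma adjusted p of 1.5e-05. This weighting was added after the values had been seen.

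Tgfbr1, which encodes the type I receptor kinase, was at 5.53, 8.94 and 7.71 FPKM in SCPs and 26.5, 19.3 and 12.8 FPKM in RSCs among named transcripts (chr5:63056079-63124107). These groups did not overlap, and the log2 fold change was 1.26 ± 0.30 (SE), with a limma adjusted p of 0.016. Adding the unnamed transcripts, Tgfbr1 was at 25.8, 22.8 and 20.6 FPKM in SCPs and 26.5, 33.5 and 33.2 FPKM in RSCs. The log2 fold change fell to 0.41 ± 0.13 (SE), with a limma adjusted p of 0.030 and an unadjusted p of 0.019, and the call was lost. On named transcripts the call was also lost without any 1 of SCP replicates 1, 2 and 3 or RSC replicates 1 and 2, at unadjusted limma p-values of 0.0102 to 0.0218.

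Tgfbr3, which encodes the co-receptor betaglycan that presents ligand, and Tgfb2 in particular, to the kinase receptors, was at 9.37, 14.0 and 12.1 FPKM in SCPs and 21.3, 13.4 and 14.0 FPKM in RSCs (chr14:3506416-3680508). The groups overlapped, with a log2 fold change of 0.41 ± 0.23 (SE) and a limma adjusted p of 0.20. It was 0.13 ± 0.20 with unnamed transcripts added and -0.09 ± 0.21 with length weighting, so no direction was resolved. The named Tgfbr2 and Tgfbr3 transcripts with values carried the Cufflinks status LOWDATA in 6 of 6 samples. In RSC replicate 3 the Tgfbr2 transcript carried it at a read coverage of 49.2, so the status does not by itself mean thin coverage.

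The balance of Tgfbr2 to Tgfbr1, as log2 of the ratio after adding 1 FPKM to each, was 1.29 higher in RSCs by length-weighted values, at 0.27 ± 0.29 (SD, n = 3) in SCPs and 1.56 ± 0.11 in RSCs. The groups did not overlap, with an exact permutation p of 0.1, the smallest possible. On named transcripts the difference was -2.29 with an exact permutation p of 0.4, since it carries the zeros of RSC replicates 1 and 2.

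**Figure D3:**
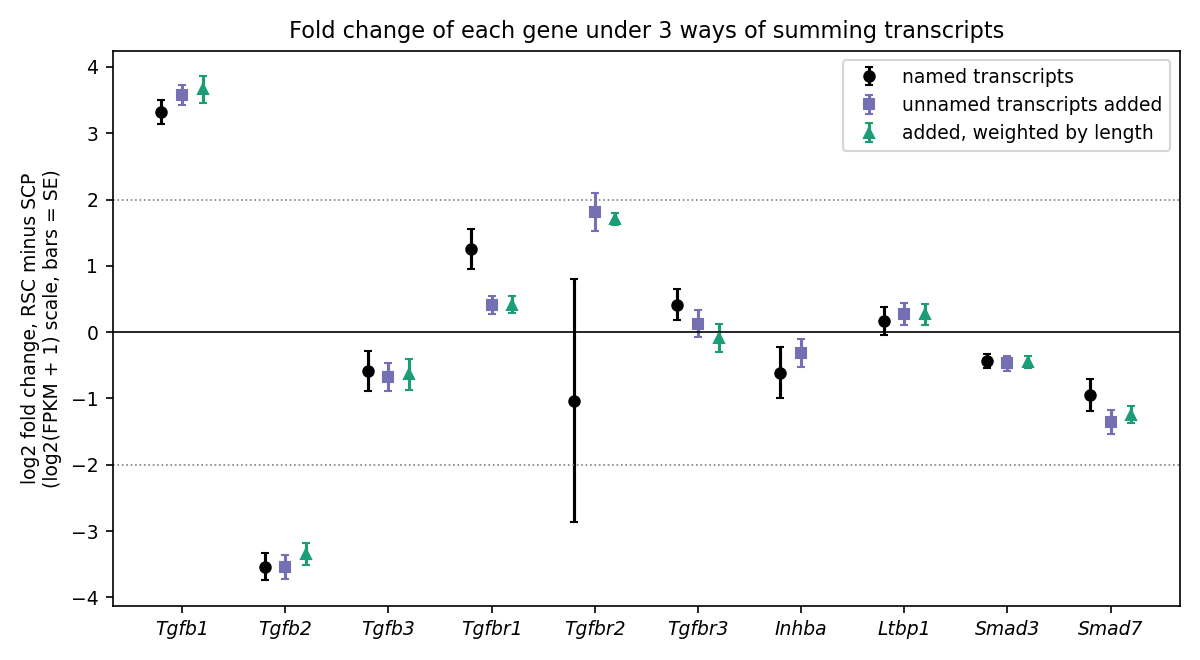
Log2 fold change of each gene, RSC minus SCP on the log2(FPKM + 1) scale, with SE bars, from named transcripts (circles), unnamed transcripts added (squares) and added with length weighting (triangles, with no value for Inhba). Dotted lines mark 4-fold differences. Tgfbr2 moves from -1.03 to 1.81 and 1.70, and Tgfbr1 from 1.26 to 0.41, while Tgfb1 and Tgfb2 stay past the dotted lines.

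Both SMAD genes were called higher in SCPs. Smad3, a receptor-activated SMAD that carries the signal to the nucleus, was at 24.6, 26.9 and 23.7 FPKM in SCPs and 18.5, 17 and 19.2 FPKM in RSCs (chr8:68569530-68678349). The groups did not overlap, and the log2 fold change was -0.44 ± 0.11 (SE), 1.36-fold higher in SCPs, with a limma adjusted p of 0.017. Smad7, the inhibitory SMAD that is itself induced by TGF-beta and blocks the receptors, was at 7.39, 5.33 and 4.24 FPKM in SCPs and 2.86, 2.30 and 2.02 FPKM in RSCs (chr18:71395830-71424164). All RSC samples were below all SCP samples, with a log2 fold change of -0.95 ± 0.24 (SE) and a limma adjusted p of 0.021. Smad7, with unnamed transcripts added, was at 7.39, 9.35 and 6.36 FPKM in SCPs with the RSC values as before, a log2 fold change of -1.35 ± 0.18 and a limma adjusted p of 7.3e-04.

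The SMAD calls depended on scaling. Scaling the libraries by median of ratios moved the median of all genes by 0.18 on the log2 scale. Under it, Smad3 was at -0.23 with an unadjusted limma p of 0.054 and Smad7 at -0.78 with 0.015, neither of which passed. The Smad3 call was also lost without any 1 sample other than SCP replicate 3, at unadjusted limma p-values of 0.0122 to 0.0222. The same held for Smad7, at 0.0139 to 0.029.

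Ordered by mean FPKM of named transcripts, Smad3 (25.1), Tgfb2 (22.8) and Ltbp1 (20.9) led in SCPs, and neighbours among these 3 overlapped in their sample values. Tgfbr3, Tgfb1, Tgfb3, Tgfbr2, Tgfbr1 and Smad7 followed from 11.8 down to 5.65 FPKM, each overlapping its neighbour, and Inhba was last at 1.54. The order changed once unnamed transcripts were counted: Tgfbr2 (32.5) and Tgfbr3 (30.1) led in SCPs by the plain sum and Tgfbr3 (36.7) and Tgfbr2 (27.02) with length weighting, and Tgfb2 was sixth by both. In RSCs, Tgfb1 led at 125 FPKM and was above all others in every sample. By the plain sum, Tgfb1 (149) and Tgfbr2 (123) led in RSCs and overlapped, with Tgfbr2 at 186 and Tgfb1 at 174 FPKM in RSC replicate 3. With length weighting, Tgfb1 (160) and Tgfbr2 (90.1) led without overlapping, and Tgfbr3 followed at 33.5 FPKM.

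The wider pathway was described from 79 other genes in 7 lists by role. The lists were chosen with earlier results of these data known, so their shares beside all genes are no test of enrichment. Of the 79 genes, 67 were tested and 29 were called higher in RSCs, or 43.3% beside 18.1% of all genes. Another 8 were called higher in SCPs, or 11.9% beside 22.4%. Their median log2 fold change was 0.15, beside -0.17 for all genes. Counting unnamed transcripts too, 30 of 68 were called higher in RSCs and 14 higher in SCPs, beside 23.2% and 34.2% of all genes.

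Among 9 other ligand genes of the family, 3 were tested. Inhbb, which encodes the beta B subunit of activin B, was at 0, 0 and 0.062 FPKM in SCPs and 2.72, 2.74 and 3.38 FPKM in RSCs, with a log2 fold change of 1.95 ± 0.21 (SE) and a limma adjusted p of 8.4e-04. Every RSC sample was above every SCP sample, though the levels were low. Inha, the inhibin alpha gene, was not called from named transcripts at -0.65 ± 0.20, but was called in the fit with unnamed transcripts added, at -0.65 ± 0.15. Mstn, which encodes myostatin, was at 0.923, 2.06 and 2.34 FPKM in SCPs and was listed at 0 in all RSC samples, and it did not reach the filter. The 6 skeletal muscle markers called, of 7 tested, were also higher in SCPs. All 8 muscle markers on the list summed to 59.0 to 232 FPKM in SCPs and 5.13 to 8.41 FPKM in RSCs. Inhbc, Inhbe, Nodal and Lefty1 were listed at 0 in every sample, and Lefty2 was at 0 in the SCPs and at 0.171 FPKM in 1 RSC sample.

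Genes that store or release latent TGF-beta held most of the calls higher in RSCs outside the target list. Of 14 tested, 10 were called higher in RSCs and 2 higher in SCPs, beside 18.1% and 22.4% of all genes. Itgb8, which encodes the beta 8 integrin subunit that activates latent TGF-beta, was at 5.87, 5.66 and 5.16 FPKM in SCPs and 171, 201 and 154 FPKM in RSCs. Its log2 fold change was 4.74 ± 0.13 (SE), with a limma adjusted p of 1.3e-05, and Itgav, its alpha partner, was higher by 1.59 ± 0.15.

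Thbs1, which encodes the secreted activator thrombospondin 1, was at 6.43, 7.91 and 9.41 FPKM in SCPs and 65.4, 65.2 and 40.8 FPKM in RSCs, with a log2 fold change of 2.69 ± 0.23. Nrros and Lrrc32 encode cell-surface anchors of latent TGF-beta, the former known from macrophages and microglia. Nrros was at 1.04, 1.69 and 1.43 FPKM in SCPs and 9.14, 13.4 and 9.08 FPKM in RSCs, a log2 fold change of 2.26 ± 0.23, and Lrrc32 was higher by 2.21 ± 0.19. In the same samples the leukocyte markers Csf1r and Ptprc were at 54.4 to 83.8 and 7.33 to 11.9 FPKM in RSCs, against 1.48 to 3.83 and 0.193 to 0.758 FPKM in SCPs, and their part in these differences was not tested.

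The microfibril gene Fbn1 was higher in RSCs by 2.02 ± 0.15 on the log2 scale, while Fbn2, its embryonic relative, was at 18.2, 38.7 and 10.5 FPKM in SCPs and 0, 2.44 and 0 FPKM in RSCs, a log2 fold change of -3.77 ± 0.67. After unnamed transcripts were added, Fbn2 was at 64.8 to 107 FPKM in SCPs and 11.2 to 14.6 FPKM in RSCs, and the change was -2.58 ± 0.20. Emilin1, whose product restrains TGF-beta maturation, was higher in SCPs at 47.8, 52.1 and 47.9 FPKM against 21.6, 27.2 and 24.1 FPKM in RSCs. The other latency genes called higher in RSCs were Ltbp3, Ltbp4, Mmp2 and Mmp9, by 1.06 to 1.67.

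Of the other receptors, 5 were tested and 1 was called, beside 40.5% of all genes. Eng, which encodes the co-receptor endoglin, was at 7.05, 13.2 and 12.4 FPKM in SCPs and 45.3, 41.7 and 51.2 FPKM in RSCs, with a log2 fold change of 2.02 ± 0.24 (SE) and a limma adjusted p of 0.0012. Of 8 endothelial markers, 1 was called higher in RSCs, beside 18.1% of all genes. Their sums were 42.4 to 77.3 FPKM in SCPs and 104 to 116 FPKM in RSCs. The activin type II receptor genes Acvr2a and Acvr2b were poorly represented by named transcripts, and Acvr2a was listed at 0 in all 6 samples. With unnamed transcripts added, Acvr2a was at 13.9, 18.6 and 12.9 FPKM in SCPs and 8.61, 6.33 and 7.31 FPKM in RSCs, a log2 fold change of -0.93 ± 0.18. Acvr2b was at 11.4, 7.76 and 6.37 FPKM in SCPs and 1.34, 1.61 and 1.00 FPKM in RSCs, a change of -2.01 ± 0.23, and both were then called higher in SCPs. Acvrl1, a type I receptor gene, gained a call in the other direction, at 3.86, 7.72 and 4.90 FPKM in SCPs and 15.2, 16.5 and 13.1 FPKM in RSCs, a change of 1.33 ± 0.23.

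Among 6 antagonists, 2 were called higher in RSCs and 1 higher in SCPs, beside 18.1% and 22.4% of all genes. Fst encodes follistatin, which binds and neutralizes activin. It was at 4.07, 5.06 and 2.99 FPKM in SCPs and 0.531, 0.228 and 0.726 FPKM in RSCs, with a log2 fold change of -1.75 ± 0.26 (SE) and a limma adjusted p of 0.0030. The log2 ratio of Inhba to Fst, each with 1 FPKM added, was 1.14 higher in RSCs with an exact permutation p of 0.2, and 2.12 higher with unnamed transcripts added, with an exact permutation p of 0.1. Of the pair, Fst passed the test and Inhba did not.

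Dcn, the matrix proteoglycan decorin that binds TGF-beta, was at 8.60, 14.9 and 23.9 FPKM in SCPs and 1175, 2697 and 2308 FPKM in RSCs, a log2 fold change of 6.96 ± 0.45. Dcn is also 1 of the 8 fibroblast markers. Fmod, which encodes the related fibromodulin, was higher in RSCs by 2.09 ± 0.24. Fstl3, a relative of follistatin, was not called from named transcripts, but with unnamed transcripts added it was at 1.81, 4.47 and 2.23 FPKM in SCPs and 8.40, 9.02 and 8.93 FPKM in RSCs. It was then called higher in RSCs by 1.41 ± 0.26, the opposite direction to Fst. This made 3 antagonists higher in RSCs, beside 23.2% of all genes.

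The common SMAD gene Smad4 and the receptor-activated Smad2 were not called, at -0.18 ± 0.28 and -0.13 ± 0.12 on the log2 scale. Of 16 tested regulators of receptors and SMADs, 2 were called higher in RSCs and 3 higher in SCPs, beside 18.1% and 22.4% of all genes. Pmepa1, a TGF-beta-induced inhibitor of SMAD signalling, was at 34.2, 36.5 and 45.6 FPKM in SCPs and 127, 123 and 135 FPKM in RSCs, a log2 fold change of 1.71 ± 0.12 (SE) with a limma adjusted p of 1.9e-04. Smurf1, a ubiquitin ligase for SMADs and receptors, was higher in RSCs by 2.19 ± 0.47.

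Tgif2, which encodes a SMAD co-repressor, was at 40.8, 36.8 and 37.3 FPKM in SCPs and 13, 8.29 and 13.4 FPKM in RSCs, a log2 fold change of -1.67 ± 0.19. Usp9x, a deubiquitinase of SMAD4, was lower in RSCs by 1.07 ± 0.20 and the receptor-associated Strap by 0.51 ± 0.11. The Strap call was lost with unnamed transcripts added, at -0.30 ± 0.11. Smurf2 (-0.45 ± 0.09), Trim33 (-1.23 ± 0.19) and Rnf111 (-0.84 ± 0.14) were then called. This made 5 of 16 regulators higher in SCPs, beside 34.2% of all genes, a number near that of genes at large.

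Of 21 genes known as targets of TGF-beta in many cell types, 13 were called higher in RSCs and 2 higher in SCPs. The shares of all genes were 18.1% and 22.4%. Cdkn2b, a cell cycle inhibitor gene, was at 0.0834, 0.0779 and 0.156 FPKM in SCPs and 19.3, 22.5 and 20.5 FPKM in RSCs, a log2 fold change of 4.30 ± 0.17 (SE). Plaur, the urokinase receptor gene, and Bhlhe40, a transcriptional repressor gene, were higher in RSCs by 4.31 ± 0.27 and 4.14 ± 0.28 on the log2 scale.

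Postn and Ctgf were the target genes called higher in SCPs. Postn, which encodes periostin, was at 468, 611 and 630 FPKM in SCPs and 18.0, 8.05 and 29.5 FPKM in RSCs, a log2 fold change of -5.03 ± 0.44 with a limma adjusted p of 3.6e-04. Ctgf, which encodes connective tissue growth factor, was at 153, 149 and 178 FPKM in SCPs and 34.6, 29.6 and 23.5 FPKM in RSCs, a change of -2.43 ± 0.16. Cyr61, which encodes a relative of connective tissue growth factor, was called higher in RSCs by 1.16 ± 0.12. The target list therefore did not move one way. Once unnamed transcripts were added, 12 targets were called higher in RSCs and 3 higher in SCPs, beside 23.2% and 34.2% of all genes. The Lox call was lost and Snai1 gained at -0.64 ± 0.10. Col1a1 and Col3a1, called higher in RSCs by 3.52 and 1.96, are also fibroblast markers, and the contractile genes Acta2, Tagln, Tpm1 and Cnn1 were not called, at 0.01, 0.15, -0.05 and -1.32. All of these genes answer to other signals too, so their levels do not measure TGF-beta activity by themselves.

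**Figure D4:**
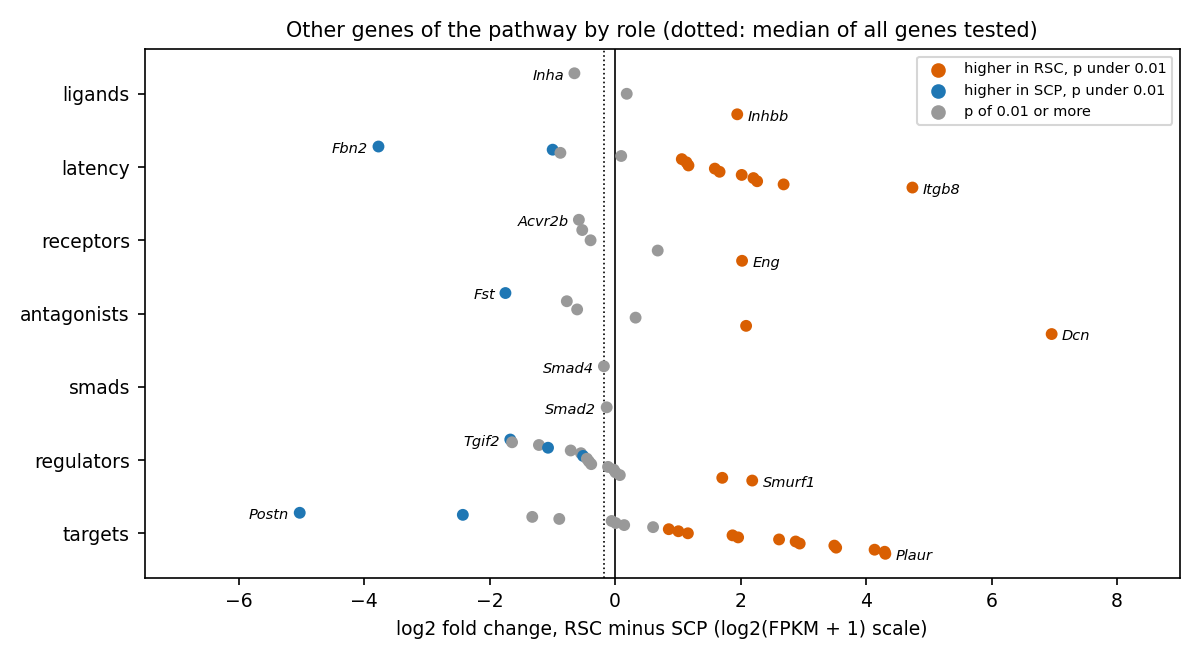
Log2 fold change (RSC minus SCP, log2(FPKM + 1) scale) of the 67 tested other pathway genes, by role, from named transcripts. Orange points were called higher in RSCs, blue higher in SCPs and grey not called, and the dotted line is the median of all genes, -0.17. The latency and target lists hold 10 and 13 of the 29 genes called higher in RSCs, while Postn and Fbn2 lie far to the SCP side.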

How the data were processed

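RNA was measured by stranded poly(A) RNA-seq with paired-end reads, in 3 SCP and 3 RSC samples. Per the labels and the methods of the study, the authors aligned reads to rn6 with TopHat2 2.1.0 after FastQC 0.11.2 and assembled and quantified transcripts with Cufflinks 2.2.1. The authors deposited FPKM per transcript, with a read coverage signal per transcript that the deposited tables give beside it, for each sample. FPKM is relative to each library, so a few very abundant transcripts lower all others. Rows whose symbols had become dates, 77 in each table, were left out.

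FPKM was summed by gene symbol and tested as log2(FPKM + 1) with limma 3.58.1 with a variance trend in R 4.3.3, leaving out genes whose mean over the 6 samples was under 1 FPKM. A gene was called at an unadjusted limma p under 0.01, and over 4-fold at a log2 fold change past 2. Both thresholds are those of the study, which used Cuffdiff and required the 2 together for a differentially expressed gene. Here a call needs the p-value only. On simulated data with 200 of 13003 genes changed by 3 on the log2 scale, 99.5% of them were called, and 1.21% of the unchanged genes. The changed genes were drawn from the more abundant ones only. The simulation therefore does not cover smaller changes or genes at low levels. Ratios and shares were compared by exact permutation tests in scipy 1.17.1. Unnamed transcripts were added to a gene when Cufflinks gave them its locus. In length weighting, the FPKM of each transcript was multiplied by its length and divided by that of the longest named transcript of the gene.

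The members and lists were chosen with earlier results of these data known. All 10 members were named, and of each other list up to 3 genes with the widest difference in each direction among those called, and genes listed at 0 in a whole group. Further genes named beside these were chosen after their values were seen. Alternatives were another pseudocount, filter, scaling, transcript sum, replicate block, adjusted threshold, and leaving out each sample.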

Additional observations from a re-analysis of the deposited data

Results flagged for a closer look

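Unnamed assembled transcripts, which carry no gene symbol and so do not enter the level of a gene by symbol, overlapped Tgfb1 and Tgfbr2 in RSCs above the level in SCPs. At Tgfb1 they were at 95.8, 99.98 and 72.7 FPKM in RSC replicates 1, 2 and 3 and at 0 in all SCP samples. They were 838, 814 and 2136 bases long and ran 739, 714 and 739 bases beyond the low-coordinate end of the named transcript. At Tgfbr2 the unnamed transcripts were at 85.4, 97.0 and 88.5 FPKM in RSC replicates 1, 2 and 3 and at 22.1, 23.2 and 26.4 FPKM in the SCPs. Tgfb1 lies on the plus strand, so as assembled these transcripts covered bases before the named start. Whether transcription in the cells begins there was not tested.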

How the results depend on the processing

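With unnamed transcripts added, 8040 genes passed an unadjusted limma p under 0.01 and 8714 with length weighting, against 5268 from named transcripts. Members higher in RSCs numbered 1 rather than 2 under the replicate block, the highest transcript per gene and the adjusted threshold, and 1 to 2 when 1 sample was left out. Members higher in SCPs numbered 1 rather than 3 under median-of-ratios scaling, the replicate block and the adjusted threshold, and 1 to 3 when 1 sample was left out. Members over 4-fold higher in SCPs were 1 to 2 when 1 sample was left out, with Tgfbr2 joining without RSC replicate 3. No share of all genes by direction is given for these settings, so the member counts are not set against genes at large. Other pathway genes higher in SCPs numbered 14 with unnamed transcripts added and 16 with length weighting, against 8. Calls rose among all genes too. Those higher in SCPs went from 22.4% to 34.2% of all genes with unnamed transcripts added. With length weighting, calls in either direction went from 40.5% to 63.2% of all genes. Tgfbr2 reversed from -1.03 to 1.81 with unnamed transcripts added and 1.70 with length weighting. It was 3.38 with zeros set to missing, which left RSC replicate 3 as the only RSC sample for this gene. It ranged from -3.24 to 0.072 when 1 sample was left out of the named values. With unnamed transcripts added, the Tgfbr2 call held under 11 of 11 further alternatives, at 1.46 to 2.07. Tgfbr3 reversed to -0.089 with length weighting, and Ltbp1 ranged from -0.0014 to 0.37 when 1 sample was left out. The difference in the Tgfb1 share was 58.2 percentage points by the highest transcript. The Tgfbr2 to Tgfbr1 ratio difference was 1.39 with unnamed transcripts added and 1.29 with length weighting, and that of Inhba to Fst was 2.12 and 2.04. Beyond the settings that name their own cause, the cause was not tested.

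The replicate numbers did not pair the samples: same-numbered deviations correlated at 0.044, -0.0049 and 0.026. SCP replicate 1 correlated best with RSC replicate 1 and SCP replicate 3 with RSC replicate 3, but SCP replicate 2 did not with RSC replicate 2. Under the replicate block, the calls of Tgfbr1, Smad3 and Smad7 were lost, at unadjusted limma p-values of 0.019, 0.029 and 0.012. Inhba was not tested at a mean of at least 5 FPKM, by the highest transcript or with length weighting, nor Smad7 at a mean of at least 5 FPKM. Since absolute depth is unknown, no counting error can be given for the low values of Inhba, Tgfb2 in RSCs or Inhbb.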
